A study of Mus musculus with 14 samples.

Results

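Pools of small lung tumors were compared with single middle-sized lung tumors of mice that carry c-Myc in the respiratory epithelium. The arrays were chosen by their sample titles, 3 of small and 4 of middle-sized tumors, and make up 7 of the 14 arrays of the series. All probe sets other than the control probe sets of the manufacturer were used. The mice were hemizygous SPC/c-Myc-transgenic CD2F1-(DBA/2xBalb/C) animals, in which the human surfactant protein C promoter drives c-Myc, and they were 9 to 13 months old. A small sample was a pool of 3 to 4 tumors of about 1 mm from 1 animal, and a middle-sized sample was a single tumor of 4 to 5 mm. The 3 pools came from 3 animals and the 4 middle-sized tumors from 4. Pooling and size therefore cannot be told apart. The other arrays, 3 of large tumors (10 mm or more) from such transgenic mice and 4 of lung from non-transgenic mice (control lung), entered the estimate of the spread and are given for orientation. No treatment separated the groups, and pools of small tumors were compared with single middle-sized tumors within 1 transgenic line.

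c-Myc is a transcription factor that binds E-box sequences together with its partner Max, and it drives genes of ribosome production, nucleotide synthesis and cell cycle entry. The genes of DNA replication are transcribed around the start of S phase, many of them under E2F factors, and the genes of mitosis follow later, often from promoters with CCAAT boxes and a cell cycle homology region. Solid tumors that outgrow their blood supply commonly turn on genes of the hypoxia response, such as glucose transporters, through HIF factors that recognise the core ACGTG.

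Values are MAS 5 signals on Affymetrix Murine Genome U74v2 arrays, a linear intensity per probe set scaled by the authors to a target of 250 on each array. On 13 arrays 6796 to 7575 of 12422 probe sets had a signal of at least 70, which the methods take as the least for expression, and on the array of middle-sized tumor 3 there were 5630. On that array 3125 values (25.2%) are 0 or nearly 0 and were left out as missing, which leaves 3 middle-sized tumors for some genes. The mean signal after trimming 2% at each end was 249.1 to 249.6 on the 13 arrays. On middle-sized tumor 3 it was 194.9 with the values near 0 and 276.3 without them. That array thus did not meet the common target, and the main fit did not rescale it. Signals below 70 were set to 70 before log2, so a log2 difference for a gene with such values is smaller than the signals themselves show. A gene below 70 on all arrays compared has a difference of 0. Rounding in the computation put some such genes into the share of all probe sets with a positive difference (54%). Small pool 1 came from a female by its Xist signal of 694, and the other 2 pools and the 4 middle-sized tumors had Xist signals of 6.35 to 27.6. Its Eif2s3y signal was 2.11, against 228.8 to 337 on those 6 arrays.

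Both groups carried the genes of alveolar type II cells. Sftpc, which encodes surfactant protein C and whose promoter drives the transgene, had signals of 10080, 8624 and 10190 in small pools, against 8463, 10550, 9939 and 9407 in middle-sized tumors 1 to 4. The values of the groups overlapped, and the log2 difference of small minus middle-sized tumors was 0.01 (95% interval -0.47 to 0.48). Of 14 tested alveolar type II markers 8 were higher and 6 lower in small pools by the sign of the difference, against 54% and 44.8% of all probe sets tested. The median log2 difference was 0.05, and no member had groups that did not overlap.

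In the moderated test of limma over 6913 probe sets no probe set passed an adjusted p of 0.05 (Benjamini-Hochberg) in either direction (0% each), and the lowest adjusted p was 0.2875. At an unadjusted p under 0.05 there were 310 probe sets (4.48%) higher and 139 (2.01%) lower in small pools, 449 in all (6.50%). The methods' unpaired test on the same values also left none after Benjamini-Hochberg adjustment, with 197 higher and 101 lower at an unadjusted p under 0.05. All small pools lay above all middle-sized tumors for 316 probe sets (4.57%) and below them for 147 (2.13%). Differences of at least 2-fold numbered 37 (0.535%) upward and 42 (0.608%) downward, and those of at least 3-fold 3 (0.0434%) and 8 (0.116%). The standard error of a log2 difference had a median of 0.22, so with 3 and 4 arrays a difference had to be large to be resolved. Nothing below is a called change, and the values are given as levels and differences with their 95% intervals, each for 1 gene alone.

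The middle-sized tumors differed more among themselves than the small pools did. Over the probe sets tested, the median SD on the log2 scale was 0.15 among small pools and 0.32 among middle-sized tumors, with 0.23 among large tumors and 0.23 among control lungs. The SD was larger among the middle-sized tumors for 79.6% of the probe sets. The limma fit takes 1 spread per gene over all groups. For genes that varied more among middle-sized tumors, intervals can therefore be too narrow and unadjusted p too low. Each small sample averages 3 to 4 tumors of 1 animal and each middle-sized sample is 1 tumor, so the part of pooling in this was not tested. Set against the mean of the small pools, middle-sized tumor 2 differed by at least 2-fold for 41 probe sets (0.593%), within the range of single small pools set against the mean of the other pools (98, 30 and 49 probe sets). Middle-sized tumor 1 differed for 622 (9.00%), tumor 4 for 392 (5.67%) and tumor 3 for 321 of its 5686 measured (5.65%). Without middle-sized tumor 2, 504 probe sets were higher and 256 lower in small pools at an unadjusted p under 0.05, still with none past the adjusted threshold (lowest adjusted p = 0.0767).

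**Figure D1:**
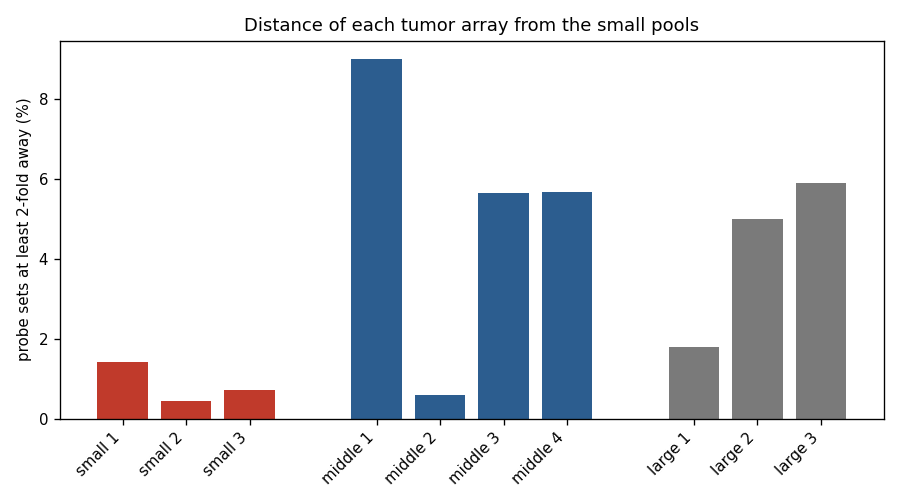
Bars show the percentage of tested probe sets whose signal on an array is at least 2-fold above or below the mean log2 signal of the small pools, small pools (red) against the mean of the other 2 pools, middle-sized (blue) and large (grey) tumors against the mean of all 3 pools. Middle-sized tumor 2 at 0.593% is in the range of the pools themselves (0.434 to 1.42%), and middle-sized tumor 1 at 9.00% is the farthest.

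Myc itself was higher in each small pool than in each middle-sized tumor. Its signals were 1738, 1391 and 1417 in small pools 1 to 3, against 325, 1246, 451 and 759.6 in middle-sized tumors 1 to 4. Small pools averaged 1515 ± 194 (SD, n = 3) and middle-sized tumors 696 ± 410.1 (SD, n = 4). Middle-sized tumor 2 was nearest to the pools and tumor 1 had the least. Large tumors held 2165, 2008 and 1055, above the pools in 2 of 3, and control lung averaged 29.7, so that every tumor stood above normal lung. The log2 difference was 1.30 (95% interval 0.53 to 2.08) with an adjusted p of 0.664 in limma. The exact two-sided permutation test gave p = 0.0571 for the 3 against 4 arrays, the smallest p it can give. Whether the probe set reads the transgene, the endogenous gene or both is not given in the sources used here.

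Of the other genes of the Myc, Max and Mxd network, 10 tested in all with Myc, 5 more were higher and 4 lower in small pools by sign, and the list median was 0.05, against 0.01 over all probe sets tested. Max, the partner of Myc, had signals of 665, 745 and 612 in small pools, against 428, 639, 560.3 and 484 in middle-sized tumors 1 to 4, a log2 difference of 0.36 (95% interval 0.04 to 0.69). The groups overlapped at middle-sized tumor 2. Mxd4, which competes with Myc for Max, had signals of 1296, 1098 and 1039 in small pools, against 1246, 1379, 2475 and 1237 in middle-sized tumors 1 to 4, with middle-sized tumor 3 far above the rest. Mycl, a relative of Myc, had signals of 39.6, 15.1 and 16 in small pools, against 557, 78, 186 and 28.7 in middle-sized tumors 1 to 4. It reached a signal of 70 in 3 middle-sized tumors and in no small pool.

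**Figure D2:**
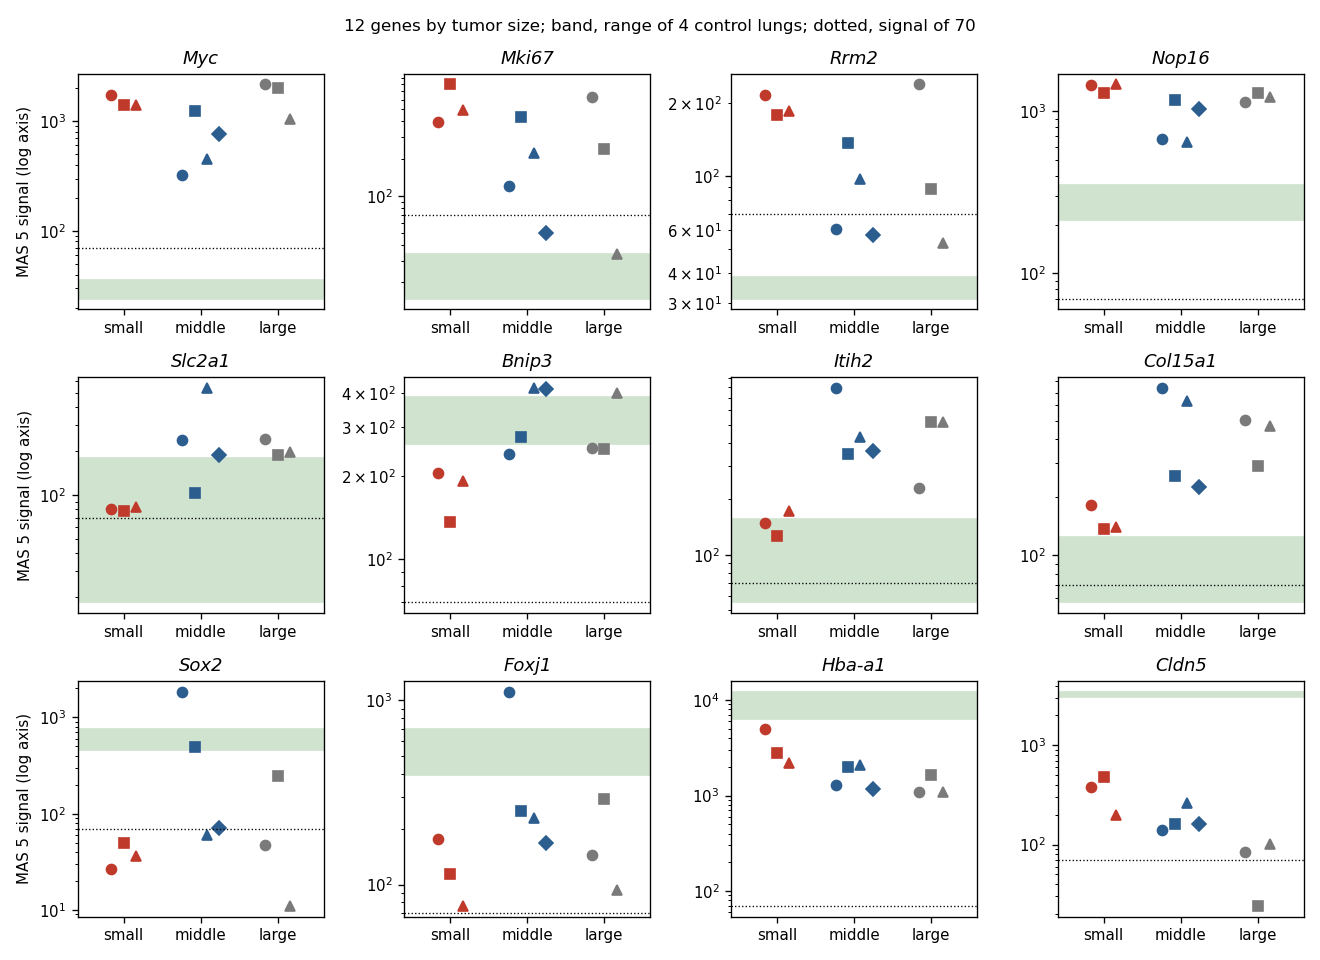
Signals (log axis) of 12 genes in small pools (red), middle-sized (blue) and large (grey) tumors, with circles, squares, triangles and diamonds for replicates 1 to 4, green bands for the range of 4 control lungs and a dotted line at 70. Myc, Rrm2, Nop16 and Hba-a1 are higher in all small pools than in all middle-sized tumors, Slc2a1, Bnip3, Itih2 and Col15a1 lower, Mki67, Foxj1 and Cldn5 overlap, and Sox2 is below 70 in all pools and in 1 middle-sized tumor.

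Genes of G2/M and mitosis made up the widest group on the side of the small pools. Of 49 tested members, 48 had a positive log2 difference, against 54% of all probe sets, with a median of 0.70. None passed the adjusted test. At an unadjusted p under 0.05, 18 were higher (background 4.48%) and none lower (background 2.01%) in small pools, and 5 had small pools entirely above middle-sized tumors (background 4.57%). These genes are transcribed together in dividing cells, so the members are not separate evidence. The count at an unadjusted p under 0.05 was 4, 30, 18 and 4 without middle-sized tumors 1 to 4 in turn. It was 21, 3 and 8 without small pools 1 to 3. The count over all probe sets also changed as arrays were left out, and the backgrounds here and below are those of the full fit.

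The promoters of Ect2 and Prc1 are shown as members of the list that carry the CCAAT box, and that of Mcm5, a replication gene, for its E2F motif. Each is the 250 bases before the annotated start (RefSeq, GRCm38.p6), written 5′ to 3′ on the strand of the gene. Capitals mark CCAAT in the first and second, the cell cycle homology region TTTGAA in the first as well, and CCAAT and the overlapping pair of TTTNNCGC on both strands in the third.
Ect2, chr3:27153879-27154128, minus strand: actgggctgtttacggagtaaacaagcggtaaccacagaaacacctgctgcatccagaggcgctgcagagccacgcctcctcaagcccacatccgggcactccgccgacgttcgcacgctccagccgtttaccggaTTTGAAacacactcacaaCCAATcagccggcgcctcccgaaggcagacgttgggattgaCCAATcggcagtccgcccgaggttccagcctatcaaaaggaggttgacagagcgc
Prc1, chr7:80294201-80294450, plus strand: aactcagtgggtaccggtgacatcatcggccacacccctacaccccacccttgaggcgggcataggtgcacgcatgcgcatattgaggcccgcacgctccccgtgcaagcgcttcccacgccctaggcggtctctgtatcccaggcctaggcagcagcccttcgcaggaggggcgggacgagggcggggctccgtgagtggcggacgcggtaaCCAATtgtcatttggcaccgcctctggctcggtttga
Mcm5, chr8:75109259-75109508, plus strand: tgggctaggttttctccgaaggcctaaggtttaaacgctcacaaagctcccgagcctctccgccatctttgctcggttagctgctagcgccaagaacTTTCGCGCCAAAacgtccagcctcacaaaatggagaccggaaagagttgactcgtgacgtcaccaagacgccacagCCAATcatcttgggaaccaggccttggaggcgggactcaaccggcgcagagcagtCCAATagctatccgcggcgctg
Searched on both strands in this window, CCAAT was found in 29 of 38 mitosis genes with a promoter in the table (76.3%), in 22 of 34 replication genes (64.7%) and in 35.9% of 4944 tested genes, and in 34.5% of all 27025 promoters. TTTGAA was found in 16 of the 38 mitosis promoters (42.1%) and 6 of the 34 replication promoters (17.6%), against 11.1% of the tested genes and 16.3% of all promoters. TTTNNCGC was found in 4 (10.5%) and 6 (17.6%) of them, against 7.08% and 4.39%. The E-box CACGTG was found in 2 mitosis promoters (5.26%) and 4 replication promoters (11.8%), against 9.00% and 6.05%. These are matches of letters in a window and say nothing of binding.

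Mki67, a marker of cycling cells, had signals of 393, 798 and 493 in small pools, against 120.2, 435, 224 and 50.6 in middle-sized tumors 1 to 4. Middle-sized tumor 2 lay above small pool 1 and tumor 4 below the limit of 70, and the log2 difference was 1.67 (95% interval 0.30 to 3.03), the largest of the list. A second, weak probe set of the gene read 70.7, 56.3 and 72.0 in small pools and 150.4, 52.4 and 42.5 in middle-sized tumors 1, 2 and 4, near or below the limit except in middle-sized tumor 1, with means of 66.3 in small pools and 81.8 in middle-sized tumors, the opposite order. Ect2, an exchange factor that acts in cytokinesis, had signals of 339.9, 557 and 532 in small pools, against 115, 430.3, 229 and 82.9 in middle-sized tumors 1 to 4, with middle-sized tumor 2 again inside the range of the pools and a log2 difference of 1.41 (95% interval 0.35 to 2.47).

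Prc1, a microtubule bundling protein of cytokinesis, did not overlap. It had signals of 380.0, 388 and 431 in small pools, against 199, 236, 261 and 92.7 in middle-sized tumors 1 to 4, a log2 difference of 1.12 (95% interval 0.22 to 2.02). Racgap1, which works with Ect2 at the spindle midzone, had signals of 222, 303 and 230.2 in small pools, against 85.1, 195, 166 and 54.6 in middle-sized tumors 1 to 4, a difference of 1.08 (95% interval 0.19 to 1.98). Lmnb1, a protein of the nuclear lamina, had signals of 325, 446 and 362 in small pools, against 136, 294 and 147 in middle-sized tumors 1, 2 and 4, and Smc4, a condensin subunit, had signals of 818, 876 and 734 in small pools, against 402, 635, 670.4 and 591 in middle-sized tumors 1 to 4. With the inner centromere protein Incenp (difference 0.64 (95% interval -0.04 to 1.32)) these are the 5 members without overlap. In all 5 the lowest values came from middle-sized tumors 1 and 4.

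Cdk1, the mitotic kinase, had signals of 416, 539 and 529.9 in small pools, against 209, 513, 354 and 92.3 in middle-sized tumors 1 to 4. Here middle-sized tumor 2 lay between the pools, tumor 4 far below every pool, and the difference was 1.01 (95% interval -0.16 to 2.19). Aurka, a centrosomal kinase, differed by 0.87 (95% interval 0.12 to 1.62), Plk1, another mitotic kinase, by 0.92 (95% interval 0.03 to 1.80), and Top2a, which untangles replicated chromosomes, by 1.00 (95% interval 0.09 to 1.92). Each had middle-sized tumor 4 lowest and tumor 2 highest among the middle-sized tumors. The mean log2 signal over 42 members measured on all 7 arrays was 8.12, 8.65 and 8.48 in small pools and 7.41, 8.38, 7.92 and 7.02 in middle-sized tumors 1 to 4. Large tumors spanned most of this range, and control lung lay below it. Small pool 1 had the lowest level of the pools, and middle-sized tumor 2 exceeded it.

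**Figure D3:**
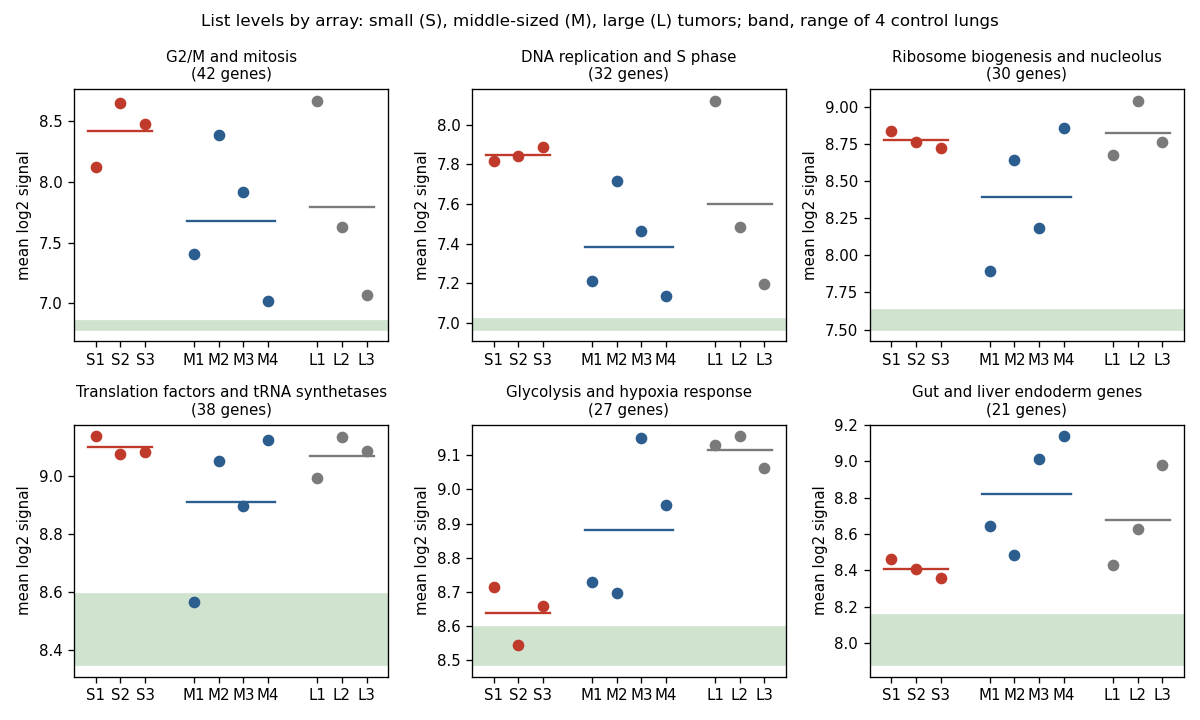
Mean log2 signal of the members of 6 gene lists on each array of small (S, red), middle-sized (M, blue) and large (L, grey) tumors, horizontal lines the group means and green bands the range of 4 control lungs. Small pools lie close together, and among middle-sized tumors the mitosis level ran between 7.02 and 8.38.

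DNA replication and S phase gave the most members without overlap. Of 38 tested, 35 had a positive difference (background 54%), 11 had all small pools above all middle-sized tumors (background 4.57%) and none below (2.13%), and the median was 0.43. At an unadjusted p under 0.05 the count was 10 (background 4.48%), 5 without small pool 2 or without middle-sized tumor 4, 6 without small pool 3 or without middle-sized tumor 1, and 15 without middle-sized tumor 2. Rrm2, the small subunit of ribonucleotide reductase, which makes deoxynucleotides, had signals of 217, 179 and 185 in small pools, against 60.8, 137, 97.3 and 57.3 in middle-sized tumors 1 to 4. The difference was 1.10 (95% interval 0.38 to 1.82), and middle-sized tumors 1 and 4 were below 70. Mcm5, a subunit of the replicative helicase, whose promoter is shown above, had signals of 694, 642 and 676 in small pools, against 238, 511, 433 and 253 in middle-sized tumors 1 to 4, a difference of 0.98 (95% interval 0.29 to 1.67).

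Of the other helicase subunits, Mcm3 had signals of 436, 365 and 365 in small pools, against 244, 265 and 211 in middle-sized tumors 1, 2 and 4, and Mcm7 had signals of 419, 409.6 and 425 in small pools, against 203, 406, 309.9 and 284 in middle-sized tumors 1 to 4, where middle-sized tumor 2 stood a little under the lowest pool. Thymidine kinase Tk1, of nucleotide salvage, had signals of 528, 514 and 581 in small pools, against 245, 454, 402 and 179 in middle-sized tumors 1 to 4, a difference of 0.85 (95% interval -0.05 to 1.75). Cdc6, which loads the helicase at origins, had signals of 146, 95.1 and 134 in small pools, against 68.1, 92.3, 59.2 and 54 in middle-sized tumors 1 to 4. The maintenance methyltransferase Dnmt1 differed by 0.50 (95% interval 0.02 to 0.98), the polymerase and primase subunits Pold1 by 0.38 (95% interval -0.03 to 0.78) and Prim2 by 0.22 (95% interval -0.09 to 0.54), the histone chaperone Asf1b by 0.60 (95% interval 0.06 to 1.14) and Gmnn, which restrains helicase loading, by 0.25 (95% interval -0.01 to 0.51), all without overlap. Fen1, the flap nuclease, overlapped at middle-sized tumor 2 and differed by 0.83 (95% interval 0.29 to 1.37). Over 32 members the mean log2 level was 7.82 to 7.89 in small pools and 7.21, 7.71, 7.46 and 7.13 in middle-sized tumors 1 to 4, and in this list the groups did not overlap.

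G1/S regulators differed less. Of 20 tested, 6 were lower in small pools by sign (background 44.8%) and the median was 0.19. There were 4 members above without overlap (background 4.57%) and 1 higher at an unadjusted p under 0.05 (background 4.48%). Cks1b, a subunit of cyclin-dependent kinases, had the largest value, 0.59 (95% interval -0.13 to 1.30), with overlap. Cdk2 had signals of 189.8, 206 and 208 in small pools, against 109, 153, 153 and 172 in middle-sized tumors 1 to 4, a difference of 0.47 (95% interval 0.06 to 0.89). Cdk4, the partner of D cyclins, had signals of 1789, 1796 and 1682 in small pools, against 1120, 1679 and 1566 in middle-sized tumors 1, 2 and 4, and the difference was 0.29 (95% interval -0.12 to 0.70). The inhibitor Cdkn2b had the most negative value of the list, -0.54 (95% interval -1.25 to 0.17), and its groups overlapped.

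Pclaf, a PCNA-associated factor of replicating cells, and Cdca7, a nuclear protein of the cell cycle known as a Myc target in human and mouse cells, belong to no list and stood among the 10 largest differences without overlap. Pclaf had signals of 371, 309.9 and 324 in small pools, against 109.8, 257, 142 and 49.4 in middle-sized tumors 1 to 4, and Cdca7 had signals of 479, 423 and 421 in small pools, against 114, 362, 126 and 285 in middle-sized tumors 1 to 4. Both were highest in small pool 1, and Cdca7 was low in middle-sized tumors 1 and 3 while Pclaf was lowest in tumor 4.

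In ribosome biogenesis the middle-sized tumors stood in another order than in mitosis. Of 40 tested members 35 had a positive difference (background 54%), 6 were higher at an unadjusted p under 0.05 (background 4.48%) and none lower, and 4 did not overlap (background 4.57%), all higher in small pools, with a median of 0.39. The median was 0.17 without middle-sized tumor 1 and 0.57 without tumor 4, and the count at an unadjusted p under 0.05 was 2 and 23 in these fits, 10 without middle-sized tumor 2, and 3 without tumor 3 or without small pool 3. Nop58, a core protein of box C/D nucleolar particles, had signals of 359, 365 and 391 in small pools, against 124, 334, 165 and 316 in middle-sized tumors 1 to 4. Nop16, a nucleolar protein, had signals of 1452, 1298 and 1462 in small pools, against 676, 1172, 648 and 1035 in middle-sized tumors 1 to 4, a difference of 0.72 (95% interval 0.26 to 1.17), and a second probe set of the gene averaged 408 in small pools and 260.1 in middle-sized tumors. The RNA polymerase I subunits Polr1b and Polr1e differed by 0.47 (95% interval 0.01 to 0.93) and 0.56 (95% interval 0.25 to 0.86). In Nop58 and Nop16 middle-sized tumors 1 and 3 were low and tumors 2 and 4 near the pools.

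Nop56, the partner of Nop58, showed the overlap of this list. It had signals of 815, 876 and 671 in small pools, against 149.6, 747, 358 and 898 in middle-sized tumors 1 to 4, and middle-sized tumor 4, the lowest in mitosis genes, was above all pools. The mean log2 level of 30 members was 8.83, 8.76 and 8.72 in small pools and 7.90, 8.64, 8.18 and 8.86 in middle-sized tumors 1 to 4. Tumor 4 thus had the highest level of these arrays for ribosome biogenesis and the lowest for mitosis. CACGTG was found in 4 of 35 promoters of the list (11.4%), against 9.00% of tested genes.

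Translation and nucleotide genes differed by smaller amounts. Of 46 translation factors and tRNA synthetases 9 had a negative difference (background 44.8%), and the list median was 0.20 (0.07 without middle-sized tumor 1). At an unadjusted p under 0.05 there were 2, a share near the background of 4.48%, with 0 without middle-sized tumor 1 and 8 without tumor 4. The initiation factor subunits Eif3e and Eif2b1 had the largest differences, 0.67 (95% interval -0.33 to 1.67) and 0.53 (95% interval -0.10 to 1.15), both lowest in middle-sized tumor 1. The arginyl-tRNA synthetase Rars had signals of 537, 605 and 557 in small pools, against 318, 414, 565 and 410.1 in middle-sized tumors 1 to 4. Of 22 ribosomal protein genes 20 were positive (background 54%), at a median of 0.08. Rpl13a alone did not overlap (background 4.57%), with 1840, 1673 and 1827 in small pools and 597, 1560, 1392 and 1300 in middle-sized tumors, followed by Rpl10a with 0.36 (95% interval -0.27 to 0.99). Among 29 enzymes of nucleotide, serine, one-carbon and polyamine synthesis 21 were positive (background 54%), at a median of 0.17. Srm, the spermidine synthase, had signals of 832, 747 and 795 in small pools, against 172, 808, 291 and 1104 in middle-sized tumors 1 to 4, low in middle-sized tumors 1 and 3 and highest in tumor 4, a difference of 0.78 (95% interval -0.27 to 1.83). Impdh1, of guanine nucleotide synthesis, differed by 0.72 (95% interval 0.12 to 1.33), and Adssl1, of adenine nucleotide synthesis in muscle, by -0.57 (95% interval -1.12 to -0.01), the only member with an unadjusted p under 0.05 in the opposite direction.

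**Figure D4:**
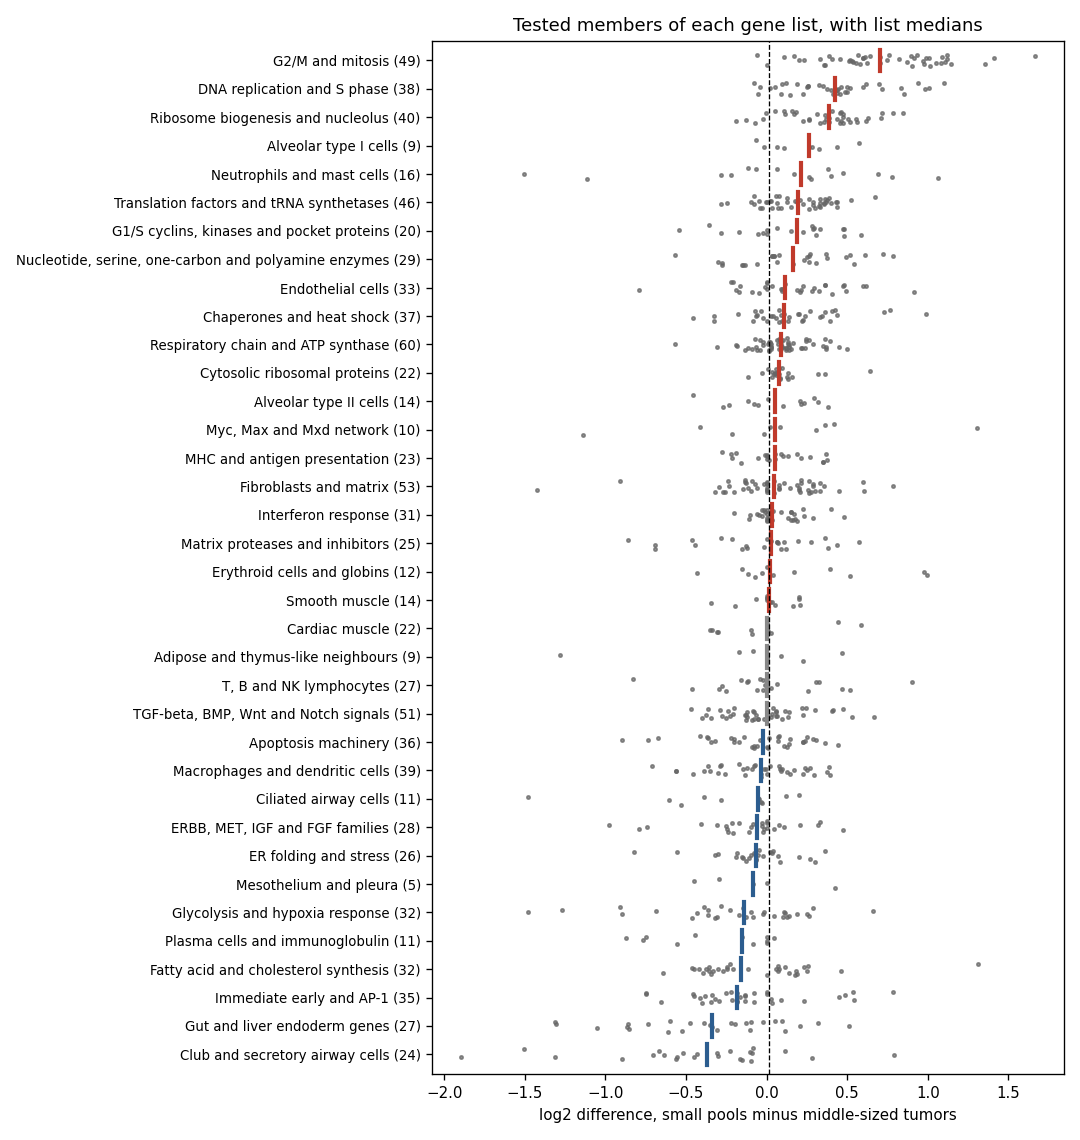
Each point is a tested member of a gene list at its log2 difference of small pools minus middle-sized tumors, vertical bars are list medians (red above 0, blue below 0, grey at 0), numbers in brackets are members tested, and the dashed line is the median of all 6913 probe sets (0.01). Mitosis (0.70), replication (0.43) and ribosome biogenesis (0.39) lie highest, club and secretory airway cells (-0.37) and gut and liver genes (-0.34) lowest.

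Several genes outside growth lists were highest in the small pools. Bcan, the matrix proteoglycan brevican of brain, had the largest difference without overlap among genes with 1 symbol. It had signals of 312, 309.8 and 385 in small pools, against 34.2, 149.6, 196 and 9.08 in middle-sized tumors 1 to 4, a difference of 1.61 (95% interval 0.59 to 2.63). Its level in 2 of 3 large tumors was below 70, with 335, 18.6 and 17.3. A second probe set of Bcan read at most 10.9 on the arrays compared. Thrsp, a nuclear protein that promotes fatty acid synthesis, had signals of 248, 212 and 233 in small pools, against 64.7, 153 and 74.9 in middle-sized tumors 1, 2 and 4, although the list of 32 fatty acid and cholesterol genes as a whole had a median of -0.16 and Msmo1, a sterol oxidase, differed by -0.64 (95% interval -1.65 to 0.37). Snx12, a sorting nexin, had signals of 282, 268 and 305 in small pools, against 59, 234, 62.5 and 228 in middle-sized tumors 1 to 4, low in middle-sized tumors 1 and 3, and a second probe set of it averaged 171 and 153. Rgs10, a regulator of G protein signalling abundant in immune cells, had signals of 284, 157 and 147 in small pools, against 92, 109 and 60.8 in middle-sized tumors 1, 2 and 4. A second probe set of Rgs10 overlapped, with 160.8, 90.15 and 85.5 in small pools and 86.96, 64.52 and 39.03 in the same tumors.

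Genes of glycolysis and the hypoxia response leaned to the middle-sized tumors. Of 32 tested, 21 had a negative difference (background 44.8%), 3 an unadjusted p under 0.05 (background 2.01%), and 3 had small pools entirely below middle-sized tumors (background 2.13%), at a median of -0.14. Without middle-sized tumor 3 the median was -0.02 and 15 of 32 were positive, and the count at an unadjusted p under 0.05 was 5 without small pool 1 and 6 without middle-sized tumor 1 or 2. Slc2a1, the glucose transporter GLUT1, had signals of 80.5, 77.6 and 82.3 in small pools, against 236, 104, 541 and 187 in middle-sized tumors 1 to 4. The pools sat together just above 70, middle-sized tumor 2 stood nearest to them and tumor 3 was highest, and the difference was -1.48 (95% interval -2.38 to -0.57). Large tumors held 242, 187 and 198. Bnip3, a mitochondrial protein of the hypoxia response, had signals of 206, 136 and 193 in small pools, against 240.2, 276, 416 and 413 in middle-sized tumors 1 to 4, a difference of -0.90 (95% interval -1.44 to -0.35).

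The promoters of these genes are shown for the core ACGTG of the hypoxia response element, in capitals, as the 250 bases before the start in the same build.
Slc2a1, chr4:119108495-119108744, plus strand: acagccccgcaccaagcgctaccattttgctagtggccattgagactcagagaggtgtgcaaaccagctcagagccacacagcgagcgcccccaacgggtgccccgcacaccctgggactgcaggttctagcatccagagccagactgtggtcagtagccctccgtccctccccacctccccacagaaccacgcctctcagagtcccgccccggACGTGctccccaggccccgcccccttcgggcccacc
Bnip3, chr7:138909507-138909756, minus strand: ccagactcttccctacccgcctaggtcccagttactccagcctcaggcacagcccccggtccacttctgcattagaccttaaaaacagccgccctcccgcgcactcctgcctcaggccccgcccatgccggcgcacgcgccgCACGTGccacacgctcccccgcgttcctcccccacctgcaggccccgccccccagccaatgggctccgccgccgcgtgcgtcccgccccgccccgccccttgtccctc
In Bnip3 the matches on the opposite strands overlap and form an E-box. The core, on either strand and with those inside an E-box counted, was found in 13 of 28 promoters of the list (46.4%), in 22.5% of tested genes and in 16.6% of all promoters, and in 11 of 38 mitosis promoters (28.9%).

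Ndrg1, Hk2 and Bnip3 were highest in middle-sized tumors 3 and 4, and members such as Slc2a1, Ldhb and Hk1 had another order. Ndrg1, a stress protein, had signals of 338, 247 and 217 in small pools, against 322, 205, 2128 and 1157 in middle-sized tumors 1 to 4, so that middle-sized tumors 1 and 2 were inside or below the range of the pools. Ldhb, the heart isoform of lactate dehydrogenase, had signals of 377, 139 and 175 in small pools, against 514, 324, 203 and 709.6 in middle-sized tumors 1 to 4, lowest in tumor 3 of its group, a difference of -0.91 (95% interval -1.84 to 0.01). Hexokinase Hk2 had signals of 367, 329 and 298 in small pools, against 334, 432, 711 and 782 in middle-sized tumors 1 to 4, a difference of -0.69 (95% interval -1.25 to -0.13), while Hk1, the common isoform, had the opposite sign with had signals of 6497, 4434 and 5848 in small pools, against 1313, 5976, 3821 and 4984 in middle-sized tumors 1 to 4. Aldoa, the aldolase of muscle and most tissues, differed by -0.23 (95% interval -0.57 to 0.11) without overlap. Ldha, Pgk1 and Hif1a had differences of 0.05 (95% interval -0.35 to 0.44), 0.11 (95% interval -0.38 to 0.60) and 0.10 (95% interval -0.30 to 0.50), and Vegfa, the vascular growth factor, 0.26 (95% interval -0.47 to 0.99). The list as a whole was thus uneven.

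Several genes of secreted liver proteins had lower signals in small pools, and others did not. Of 27 tested gut and liver endoderm genes, 21 had a negative difference (background 44.8%), 3 had an unadjusted p under 0.05 (background 2.01%) and 3 did not overlap (background 2.13%), all lower in small pools, and the median was -0.34 (-0.16 without middle-sized tumor 1 and -0.02 where probe sets below the filter were included), and 5 had an unadjusted p under 0.05 without tumor 1 and 7 without tumor 2. Itih2, a heavy chain of the inter-alpha-trypsin inhibitor, lay outside the list and, of genes with 1 symbol, had the largest difference of this direction without overlap. It had signals of 149, 127 and 172 in small pools, against 794, 348, 434 and 363 in middle-sized tumors 1 to 4, a difference of -1.63 (95% interval -2.40 to -0.85). Orm1, an acute phase glycoprotein, had signals of 39.5, 16.9 and 24.3 in small pools, against 136, 79.1, 313 and 270.3 in middle-sized tumors 1 to 4, below 70 in every pool and above it in every middle-sized tumor. A further probe set that matches Orm1 and Orm2 had a difference of -2.21 (95% interval -3.25 to -1.18), and since these genes are near copies it cannot be assigned to either.

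Ceruloplasmin (Cp), the copper protein of plasma, had signals of 939, 554 and 559.7 in small pools, against 3439, 1082, 1072 and 1204 in middle-sized tumors 1 to 4, with middle-sized tumor 1 far above the rest. Rbp4, the carrier of retinol, had signals of 438, 435 and 422 in small pools, against 1482, 673, 601 and 625 in middle-sized tumors 1 to 4, again highest in tumor 1, a difference of -0.86 (95% interval -1.40 to -0.32). Hgfac, the protease that activates hepatocyte growth factor, had signals of 265, 257 and 181 in small pools, against 586, 269, 605 and 448 in middle-sized tumors 1 to 4, where tumor 2 was next to the pools. Fibrinogen Fga had signals of 81.1, 64.3 and 50.9 in small pools, against 85.1, 66.7, 730.1 and 125 in middle-sized tumors 1 to 4, and Reg3g, a lectin of gut epithelium, had signals of 5.46, 8.09 and 13.8 in small pools, against 8.43, 7.82, 171 and 1087 in middle-sized tumors 1 to 4, each carried mostly by 1 tumor. Clu, the chaperone clusterin, differed by -0.86 (95% interval -1.70 to -0.03) with overlap, and Apob, the lipoprotein backbone, had the opposite sign, with 560.0, 1942 and 1558 in small pools and 399, 2227, 422 and 1310 in middle-sized tumors. Itih4, a relative of Itih2, and Alb, the plasma albumin, had positive values too, 0.21 (95% interval -1.22 to 1.63) and 0.05 (95% interval -0.60 to 0.69).

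Further genes were lower in every small pool than in every middle-sized tumor. Col15a1, a collagen of basement membranes, had signals of 183, 137 and 140 in small pools, against 740.4, 258, 636 and 226 in middle-sized tumors 1 to 4, a difference of -1.42 (95% interval -2.27 to -0.58). The list it belongs to did not lean that way. Of 53 fibroblast and matrix genes 20 had a negative difference (background 44.8%), with a list median of 0.05. Mfap4, a microfibril protein, Limch1 and the basement membrane collagen Col4a1 were higher in the pools without overlap (background 4.57%), with differences of 0.60 (95% interval 0.06 to 1.13), 0.78 (95% interval -0.08 to 1.65) and 0.26 (95% interval -0.05 to 0.58). A second probe set of Limch1 overlapped, with 156, 262 and 182.5 in small pools and 141, 165, 164 and 47.65 in middle-sized tumors 1 to 4. Rgcc, a regulator of the cell cycle induced by complement, had signals of 713, 338 and 414 in small pools, against 1115, 873 and 1879 in middle-sized tumors 1, 2 and 4. Spata6, known from sperm formation, had signals of 71.7, 92.1 and 55.1 in small pools, against 284, 109.7, 224 and 153 in middle-sized tumors 1 to 4, near the limit of 70 in the pools. The molybdenum enzymes Aox1 (aldehyde oxidase) and Xdh (xanthine dehydrogenase) differed by -1.09 (95% interval -1.89 to -0.30) and -0.98 (95% interval -1.92 to -0.05). Tspan12, a membrane protein of the Norrin receptor, differed by -0.98 (95% interval -1.72 to -0.23).

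Among 36 apoptosis genes 17 had a positive (background 54%) and 18 a negative difference (background 44.8%). Bcl2, which restrains apoptosis, had signals of 88.8, 125 and 109 in small pools, against 214, 156, 185 and 137 in middle-sized tumors 1 to 4, a difference of -0.67 (95% interval -1.10 to -0.25) without overlap. A second probe set of Bcl2 overlapped, with 67.3, 63.15 and 77.7 in small pools and 135.6, 82.6, 126.6 and 42.9 in middle-sized tumors 1 to 4. Tnfrsf21, a death receptor, differed by -0.74 (95% interval -1.44 to -0.03). Dffa, the inhibitor of the apoptotic nuclease, was higher in the pools, 0.44 (95% interval 0.08 to 0.80). Herpud1, of the unfolded protein response, had signals of 650.4, 682 and 777 in small pools, against 890.4, 863, 1743 and 1757 in middle-sized tumors 1 to 4, with middle-sized tumors 3 and 4 well above tumors 1 and 2. Dusp6, a phosphatase that dampens ERK signalling, differed by -0.45 (95% interval -0.76 to -0.14) without overlap, and of 35 immediate early genes 24 were lower in small pools by sign (background 44.8%), median -0.18. Dusp2, a phosphatase of MAP kinases, and Jun, of the AP-1 factor, had the largest differences there, 0.78 (95% interval -0.04 to 1.61) and -0.75 (95% interval -1.52 to 0.03). Of the 26 genes of ER folding and stress 17 were negative (background 44.8%), with the pseudokinase Trib3 at -0.56 (95% interval -1.49 to 0.38).

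**Figure D5:**
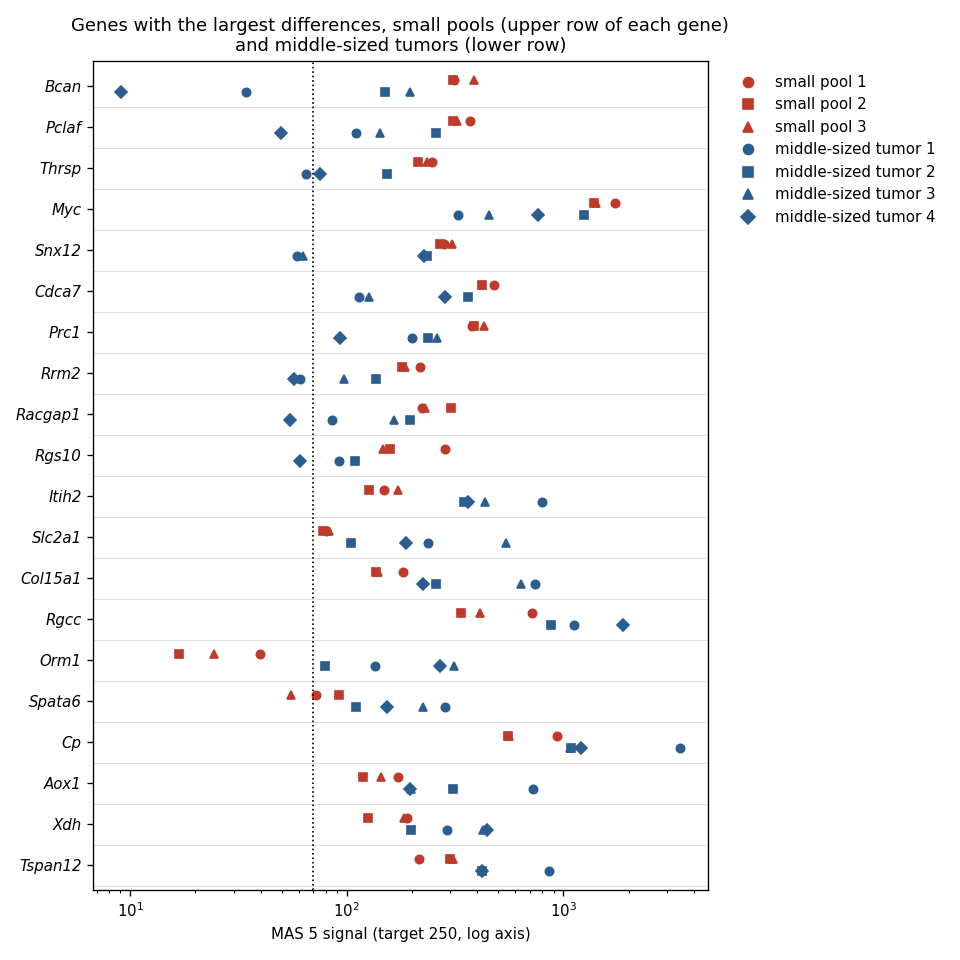
Signals (log axis) of the 10 genes with the largest difference in each direction among those whose groups do not overlap, small pools in red on the upper row of each gene and middle-sized tumors in blue on the lower row, with 1 symbol per replicate and a dotted line at 70. Middle-sized tumor 2 (blue squares) is often the one nearest to the pools, as for Myc (1246 against 1391 in the lowest pool).

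Among markers of other cells, single genes had groups that did not overlap, and bulk tumors cannot tell fewer cells of a type from less RNA per cell. Globins were higher in small pools. Hba-a1 had signals of 4932, 2775 and 2184 in small pools, against 1275, 2012, 2086 and 1158 in middle-sized tumors 1 to 4, and Hbb-b2 had signals of 2028, 1068 and 944 in small pools, against 587, 895, 805 and 392 in middle-sized tumors 1 to 4, without overlap, with control lung at a mean of 10010 and 5772. These genes have near-identical copies, and their shares of the signal cannot be separated. Of the other 10 tested erythroid genes 4 had a positive (background 54%) and 5 a negative difference (background 44.8%), and none was without overlap. Without small pool 1 neither globin kept an unadjusted p under 0.05.

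Of 33 endothelial markers 9 had a negative difference (background 44.8%). The list median was 0.12, with 3 higher at an unadjusted p under 0.05 (background 4.48%). Without small pool 2 or middle-sized tumor 4 the medians were 0.03 and 0.04, and without middle-sized tumor 1 the median was 0.23 with 9 higher at an unadjusted p under 0.05. Cldn5, a claudin of endothelial junctions, had signals of 383, 480.3 and 197 in small pools, against 139, 161, 260.1 and 162 in middle-sized tumors 1 to 4, a difference of 0.92 (95% interval 0.33 to 1.50), with small pool 3 inside the range of the middle-sized tumors. Icam2 and Sox7 were higher in the pools without overlap, 2 of 33 and so near the background of 4.57%, while Icam2 was below 70 in every middle-sized tumor. The defining markers Cdh5 and Tie1 overlapped (0.49 (95% interval -0.13 to 1.11) and 0.60 (95% interval -0.08 to 1.28)), and all these genes were far below control lung, where Cldn5 averaged 3211 and Cdh5 2842. The mean log2 level of 30 markers was 7.40, 7.62 and 7.20 in small pools and 7.46, 7.15, 7.28 and 7.10 in middle-sized tumors. Of 9 alveolar type I markers 7 were positive (background 54%), median 0.26 (0.02 without small pool 2 and 0.10 without middle-sized tumor 2). Emp2 and Pdpn were higher in the pools without overlap (background 4.57%), with differences of 0.57 (95% interval 0.17 to 0.97) and 0.44 (95% interval 0.11 to 0.76). Pdpn read 661 in control lung and at most 112 in a tumor of these groups. In middle-sized tumors 1 to 4 it read 62.2, 54.3, 74.25 and 65.9, near or below the limit of 70. Emp2, Pdpn, Icam2 and the globins were all higher in control lung than in either tumor group. Other genes with control lung highest were instead lowest in small pools. Spata6, Foxj1 and Xdh averaged 309, 580 and 655 in control lung. They averaged 193, 440.5 and 339 in middle-sized tumors and 73, 122 and 166 in small pools. The part of adjoining lung tissue in the small samples was not tested.

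Airway markers were uneven among the middle-sized tumors. Of 24 club and secretory airway genes 21 had a negative difference (background 44.8%), median -0.37 (-0.25 without middle-sized tumor 1). At an unadjusted p under 0.05, 3 were lower in small pools (background 2.01%), and 1 was lower without overlap (background 2.13%). As a mean the list was highest in tumor 1, though single members were not. Sox2, a transcription factor of airway epithelium, had signals of 26.6, 49.4 and 36.3 in small pools, against 1853, 496, 60.4 and 71.6 in middle-sized tumors 1 to 4. It was below 70 in all pools and in middle-sized tumor 3. Ltf, the iron-binding lactoferrin of airway secretions and neutrophils, had signals of 131, 10.8 and 12.8 in small pools, against 149, 39.2, 327 and 1052 in middle-sized tumors 1 to 4, a difference of -1.50 (95% interval -2.97 to -0.04), and like Reg3g it was highest in tumor 4. Foxj1, the master regulator of motile cilia, had signals of 177, 114 and 76.7 in small pools, against 1116, 249.5, 229 and 168 in middle-sized tumors 1 to 4, a difference of -1.48 (95% interval -2.66 to -0.30). By sign 9 of 11 ciliated cell markers were negative (background 44.8%), at a median of -0.05. The mean log2 level of 9 ciliated markers was 7.79 to 7.86 in small pools and 9.13, 7.98, 7.72 and 7.69 in middle-sized tumors 1 to 4, so that tumor 1 alone stood apart. Mns1, a protein of motile cilia, was above 70 in tumor 1 alone, -0.61 (95% interval -1.57 to 0.35). Scgb1a1, the secretoglobin of club cells, had signals of 6796, 6123 and 6154 in small pools, against 8472, 8791, 6894 and 4833 in middle-sized tumors 1 to 4, highest in tumor 2, and the groups overlapped.

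Immune markers were uneven within the groups. S100a8, a neutrophil protein, had signals of 1740, 40.1 and 46.3 in small pools, against 55.9, 46.9, 268 and 69.6 in middle-sized tumors 1 to 4, and the granule protein Ngp had signals of 351, 10.6 and 18.6 in small pools, against 21.4, 13.3, 15.1 and 11.1 in middle-sized tumors 1 to 4, both by far highest in small pool 1. Immunoglobulin transcripts were high in small pool 1 and middle-sized tumors 1 and 3, as Igha, which had signals of 2993, 885 and 563 in small pools, against 3901, 819, 3087 and 1370 in middle-sized tumors 1 to 4. The other leading members of that list, Ighm and Jchain, which encode IgM and the joining chain, differed by -0.87 (95% interval -2.25 to 0.50) and -0.77 (95% interval -1.87 to 0.33). Lsp1, a leukocyte actin-binding protein, had signals of 202, 286 and 228 in small pools, against 127, 200.2, 85.8 and 117 in middle-sized tumors 1 to 4, without overlap. A second probe set of Lsp1 overlapped, with 112, 169 and 132.8 in small pools and 110.1, 130.4 and 83.8 in middle-sized tumors 1, 2 and 4. Of 27 lymphocyte markers 13 were negative (background 44.8%), at a list median of 0. Of 39 macrophage and dendritic cell markers 16 were positive (background 54%), at a median of -0.04. Zap70, a kinase of T cell receptor signalling, was highest in middle-sized tumor 1 and differed by -0.83 (95% interval -1.90 to 0.24). Of the macrophage list Vcam1, an adhesion molecule, and Arg1, the arginase, differed by -0.71 (95% interval -1.97 to 0.55) and -0.56 (95% interval -2.03 to 0.90), and Hdc, which makes histamine, by -1.11 (95% interval -2.42 to 0.19), all with overlap. No member of the interferon list and none of the antigen presentation list had an unadjusted p under 0.05. Their largest differences were those of Isg15 and Ifit3, induced by interferon, at 0.48 (95% interval -0.30 to 1.26) and 0.40 (95% interval -0.01 to 0.82), and of the class II activator Ciita and the class II chain H2-Ab1 at 0.37 (95% interval -0.17 to 0.92) and 0.37 (95% interval -0.48 to 1.22).

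Lists not described so far held few members without overlap. Of 37 chaperones and heat shock genes 26 were positive (background 54%), median 0.11. Hspb8, a small heat shock protein, had signals of 382, 549 and 368 in small pools, against 213, 347 and 134 in middle-sized tumors 1, 2 and 4, without overlap, a difference of 0.99 (95% interval 0.06 to 1.92), and Hsph1, of the HSP110 family, differed by 0.77 (95% interval -0.58 to 2.12) with overlap. Of 60 genes of the respiratory chain and ATP synthase 46 were positive (background 54%), median 0.09, with 2 at an unadjusted p under 0.05 higher (background 4.48%) and 1 lower (background 2.01%). Atp5pb, a subunit of ATP synthase, had signals of 87.3, 101 and 72.8 in small pools, against 158, 128, 128 and 104 in middle-sized tumors 1 to 4, lower in every pool, and Uqcr11, of complex III, differed by 0.50 (95% interval -0.05 to 1.05).

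Matrix proteases, growth factors and signals had medians near 0. Of 25 matrix protease genes 1 was above and 1 below without overlap, and of 28 growth factor genes 1 and 2. For 51 signalling genes it was 1 and 1. The backgrounds are 4.57% above and 2.13% below. The protease Adam15 and the receptor Kit were higher in small pools without overlap, by 0.57 (95% interval 0.20 to 0.95) and 0.47 (95% interval 0.08 to 0.87). Kit was below 70 in every middle-sized tumor. Cathepsin H (Ctsh) differed by -0.69 (95% interval -1.17 to -0.21) with overlap. Ctse, the protease cathepsin E, and Mmp3 were both highest in middle-sized tumor 3 and differed by -0.86 (95% interval -2.26 to 0.54) and -0.69 (95% interval -1.83 to 0.45). Kitl, the ligand of the receptor Kit and also on the endothelial list, differed by -0.79 (95% interval -1.67 to 0.09), and the activin subunit Inhbb and the latent TGF-beta binding protein Ltbp4 by 0.67 (95% interval -0.60 to 1.94) and 0.53 (95% interval -0.08 to 1.14), all with overlap. Of the alveolar type II list the fatty acid binding protein Fabp5 and the chitinase-like Chil1 had the largest values, -0.46 (95% interval -1.36 to 0.45) and 0.38 (95% interval -0.52 to 1.28), and of the fibroblast list Cyp1b1 came after Col15a1 with -0.91 (95% interval -2.30 to 0.48), far above the other arrays in middle-sized tumor 1.

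Muscle, pleural and adipose or thymus-like markers did not separate the groups either, apart from 1 gene. Atp2a2, the calcium pump of heart and slow muscle, had signals of 186, 159.6 and 214 in small pools, against 144, 136, 134 and 131 in middle-sized tumors 1 to 4, without overlap, while Myh7, a slow myosin, differed by 0.59 (95% interval -0.98 to 2.15) and ran between 172 and 2957 among middle-sized tumors. Of the smooth muscle genes the light chain Myl9 and its kinase Mylk differed by -0.35 (95% interval -0.82 to 0.13) and 0.21 (95% interval -0.15 to 0.57). Krt19 and Upk3b, of the mesothelial list, had -0.45 (95% interval -1.26 to 0.35) and 0.43 (95% interval -0.25 to 1.11). Rag1, the recombinase of lymphocyte precursors, had signals of 195, 83.2 and 120.4 in small pools, against 612, 89 and 519.5 in middle-sized tumors 1, 2 and 4. A second probe set of Rag1 read at most 10.1 on the arrays compared. Lpl, lipoprotein lipase, differed by 0.47 (95% interval -0.22 to 1.15).

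The 5 genes of widest spread among small pools were S100a8, Dlk1, Meg3, S100a9 and Xist, all highest in pool 1, and among middle-sized tumors Meg3, Sox2, Cckar, Pon1 and Bphl. Dlk1, an imprinted Notch-like ligand, had signals of 2890, 158 and 167 in small pools, against 6297, 560.3, 3830 and 1580 in middle-sized tumors 1 to 4, a difference of -2.34 (95% interval -4.73 to 0.05), the most negative of all tested. Meg3, the noncoding RNA of the same imprinted region, had signals of 1247, 454 and 17.3 in small pools, against 3811, 197 and 2453 in middle-sized tumors 1, 2 and 4. Among the pools both were highest in pool 1. Of the middle-sized tumors Dlk1 was highest in tumors 1 and 3 and Meg3 in tumors 1 and 4, and the interval of each difference reached past 0. A second probe set of Meg3 averaged 209 in small pools and 826 in middle-sized tumors. Cckar, the cholecystokinin receptor, had signals of 93.2, 90.8 and 60.4 in small pools, against 1683, 565, 62.7 and 31.7 in middle-sized tumors 1 to 4, Pon1, the paraoxonase of liver, had signals of 290.1, 379 and 245 in small pools, against 2719, 471, 199.6 and 58.3 in middle-sized tumors 1 to 4, and Bphl, a hydrolase, had signals of 247, 197 and 195 in small pools, against 2738, 297 and 148 in middle-sized tumors 1, 2 and 4, so that middle-sized tumor 1 set the spread of all of them.

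The study's own lists of cell cycle and apoptosis genes, which it chose from these arrays by tumors against control lung and which are therefore no independent evidence of direction, divided as follows. Of 24 tested genes from its up-regulated list 20 had a positive difference (background 54%), 5 an unadjusted p under 0.05 (background 4.48%) and 3 no overlap (Myc, Prc1 and Cdk4, background 4.57%), at a median of 0.56. The largest were Mki67, Ect2, Myc and Prc1, and the survivin gene Birc5, which guards chromosome segregation, had signals of 281, 198 and 246 in small pools, against 46.4, 210.5, 215 and 30.6 in middle-sized tumors 1 to 4. The most negative was Pglyrp1, a peptidoglycan recognition protein, -0.73 (95% interval -1.47 to 0.00). Of 21 tested genes from its repressed list none had groups without overlap, and the median was 0.00. Hey1, a Notch-induced repressor, and Klf7, a Kruppel-like factor, had differences of -0.38 (95% interval -0.99 to 0.24) and -0.25 (95% interval -0.66 to 0.16), and Sox2 was the one with an unadjusted p under 0.05.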

How the data were processed

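RNA was hybridised to U74v2 arrays of Affymetrix, and the 3 small tumor pools and 4 middle-sized tumors were compared. The authors computed the deposited signals, linear intensity values per probe set, by MAS 5.0 (GCOS) at a target of 250 per array, so a gene is read relative to the whole array. The number of arrays limits the precision. The pools came from 3 animals and the middle-sized tumors from 4.

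Of 12488 probe sets 66 controls were left out. Of the other 12422, 10833 had 1 symbol in GEO's platform annotation, 396 several and 1193 none. Values under 1e-06 on middle-sized tumor 3 were missing. A floor of 70 was applied before log2, and testing was limited to probe sets reaching 70 on 3 or more arrays and to the brightest per symbol, 6913 in all (6127 with 1 symbol). The test was limma 3.58.1 in R 4.3.3, two-sided, over 14 arrays in 4 groups with a trend, called at a Benjamini-Hochberg adjusted p under 0.05 and checked on simulated data. Intervals are 95% intervals of that model, unadjusted. Myc was also tested by exact permutation over the 7 arrays.

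As nothing was called, the genes named are the 10 largest differences each way among genes with 1 symbol, no overlap and a mean of at least 140 in the higher group, Myc, the study's cell cycle and apoptosis genes, at least the 2 members with the largest difference in each of 37 gene lists, and the 5 genes of largest spread per group. Other genes and further list members were named after their values were seen. The members, lists and tests were chosen with earlier results of these data known. Promoters are from RefSeq (GRCm38.p6), the first entry per gene, with 4944 of 6127 genes matched.

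Alternatives covered the floor (absent, 35 or 140), quantile or median scaling, the filter, the probe sets per gene, the estimate of the spread, the groups fitted, array weights, a replicate block, the zeros, the methods' unpaired test and its limits, and each array left out.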

Additional observations from a re-analysis of the deposited data

Results flagged for a closer look

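For 18 of 139 named genes with 4 values, 1 middle-sized tumor stood apart from the other 3, by a gap to its nearest neighbour beyond Dixon's 95% critical value for 4 samples. Chance gives this for about 5% of groups of normally distributed values. The signals were taken on the linear scale, where high values stand apart more readily than on the log2 scale. These genes were also partly chosen for a wide spread or a large difference, so the count cannot be read against that share. Groups of 3, the small pools among them, were not tested in this way.

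Middle-sized tumor 1 was the high one for 8 genes. Foxj1, the regulator of motile cilia, had a signal of 1116 there and at most 249.5 in the other 3, and the ciliary genes Mns1 and Mlf1 had 377.3 and 308.1 there and at most 59.8 and 25.9 in the others. Cp, the plasma copper protein, had 3439, Pon1, a paraoxonase, 2719, Cyp1b1, a cytochrome P450, 852.5, and Id4, an inhibitor of helix-loop-helix factors, 258.5. Upk3b, a mesothelial marker, had 144.7, below the 174 of small pool 1.

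Middle-sized tumor 3 was the high one for Mxd4 (2475), Fga (730.1), a fibrinogen chain, Mmp3 (478.3), a matrix protease, and the neutrophil genes S100a8 (267.9) and S100a9 (290.4). The last 2 were higher still in small pool 1, at 1740 and 862. Middle-sized tumor 4 was the high one for Reg3g (1087), a C-type lectin, and the low one for Limch1 (117.7). Middle-sized tumor 2 was the high one for Tgfb1 (79.19) and Csrp1 (2318), a LIM domain protein, and the low one for Klf7 (122.2). Tgfb1 was at most 17.4 in the other 3 middle-sized tumors and 77.3, 107 and 121 in small pools.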

How the results depend on the processing

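No probe set passed the adjusted threshold in either direction, apart from 1 higher in small pools without the filter and 1 higher with only the 10 tumors fitted, and the counts of the methods' unadjusted test. Both calls are the same probe set, which has no symbol, at 108, 111 and 125 in small pools and 19.1, 72.6, 13.9 and 47.9 in middle-sized tumors 1 to 4. The methods' unpaired test at p under 0.05, unadjusted, gave 197 higher and 101 lower, and 0 after Benjamini-Hochberg adjustment. Its further limit of a 3-fold ratio of means left 3 higher (Bcan, Mme and Tgfb1) and 4 lower (Itih2, Col15a1 and probe sets shared by Orm1 and Orm2 and by Cyp2a5 and Cyp2a4).

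At an unadjusted p under 0.05 limma gave 310 higher and 139 lower, and 241 and 180 with arrays scaled to 1 median. Leaving out each array in turn gave 166 to 504 higher and 87 to 256 lower, with 0 past the adjusted threshold each time. The counts were 504 and 256 without middle-sized tumor 2, 166 and 92 without small pool 2, and 199 and 87 without small pool 3. With a replicate block they were 263 and 149, with 0 past the adjusted threshold. Samples of the same number had correlations of 0.09, 0.13 and -0.11 between their deviations from the group means. Pairs of different numbers ranged from -0.38 to 0.31, so these correlations do not set same-numbered samples apart. What samples of the same number share was not tested.

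Myc kept its direction and missed the adjusted threshold under 22 alternatives, at log2 differences of 0.96 to 1.65. Of 10 list medians followed, that of gut and liver genes moved to -0.02 without the filter, that of alveolar type I markers to 0.02 without small pool 2, that of glycolysis and hypoxia genes to -0.02 without middle-sized tumor 3, that of endothelial markers to 0 with a floor of 140, and that of erythroid genes to -0.01 without small pool 3.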
